A study of Mus musculus with 2 samples.

Results

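The Clec genes encode members of the C-type lectin domain family, and they are described here in alveolar macrophages, which live in the air spaces of the lung and clear inhaled particles. The members are the genes whose symbol is Clec followed by a digit and that have a row of their own on the array, where a row is a set of probes read as 1 value. This rule gave 31 of the 22180 genes measured, each with 1 row of its own, so no gene offers a second such row as a check. A further row is shared by Clec9a and Clec1b and read 7.55 on both arrays. It belongs to no single gene and was left out, so Clec9a, the dead-cell receptor of cross-presenting dendritic cells, was not analysed here.

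Cells came from adult C57BL6 littermates and had been sorted from collagenase-digested lungs as living cells positive for Siglec-F and CD11c. The PIKfyve KO sample carried floxed Pikfyve alleles with LysM-Cre, a recombinase expressed from the lysozyme 2 locus of myeloid cells, and the wild type sample carried the floxed alleles without Cre. Each genotype was read on 1 array, and the labels do not state from how many mice its RNA came. No difference could therefore be tested, and no value below has a replicate error.

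Many CLEC proteins are surface receptors of myeloid cells that bind sugars or lipids of fungi and bacteria or ligands on other cells. Activating members signal through the kinase SYK, either by a motif in their own tail or through the adaptor proteins FcR gamma and DAP12. Some also use the adaptor protein DAP10. Inhibitory members recruit phosphatases. Others are ligands of natural killer receptors, endothelial or secreted proteins. PIKfyve is a lipid kinase of endosomes and lysosomes, the compartments that internalised receptors enter, and its product is needed for their traffic.

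Pikfyve itself read 5.95 in the array labelled PIKfyve KO and 5.68 in the array labelled wild type. It was not lower. Whether its probes touch the deleted exons is not known here, so this gene cannot check the genotypes, and the arrays are named by their labels throughout. All 14 alveolar macrophage markers lay above background on both arrays, among them Siglecf (8.54 in KO and 9.27 in wild type) and Itgax, which encodes CD11c (10.39 in KO and 10.03 in wild type). By 1.5-fold or more, 2 of these markers, Fabp4 and Fabp5, read higher in the KO array, and 3, Siglecf, Krt79 and Lpl, read lower. All values were made with the RMA method and are taken to be on its log2 scale, and differences are KO minus wild type on that scale. Background is the 95th percentile of 1432 olfactory, vomeronasal and taste receptor genes, 5.31 on the KO array and 5.37 on the wild type array.

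Of the 31 Clec genes, 18 lay above background on both arrays, 3 on 1 array and 10 on neither. Of all 22180 genes, 10513 lay above it on both arrays and 10310 on neither. The 21 Clec genes above background on at least 1 array were also those that passed the filter for the comparison, a mean of both arrays of at least 5.13. Among these 21 genes, Clec5a and Clec4d read at least 1.5-fold higher in the KO array, and Clec1b and Clec4a1 read lower by that much, 2 genes each way. Of all 12516 genes that passed the filter, 4.45% were higher and 2.66% were lower by 1.5-fold or more. At 2-fold the counts were 1 Clec gene higher and 0 lower, against 0.927% and 0.336% of all genes. With so few genes these counts are not read as a result about the family.

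The family had no common direction. Of the 21 genes, 10 read higher and 11 lower in the KO array, with a median difference of -0.02. Of all 12516 genes, 6117 read higher and 6202 lower, with a median of 0.00. The local spread, a scaled median absolute deviation of differences among genes of like level, describes the scatter between the arrays. Of the 21 Clec genes, 13 differed by no more than their local spread, as did 65.4% of all genes.

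**Figure D1:**
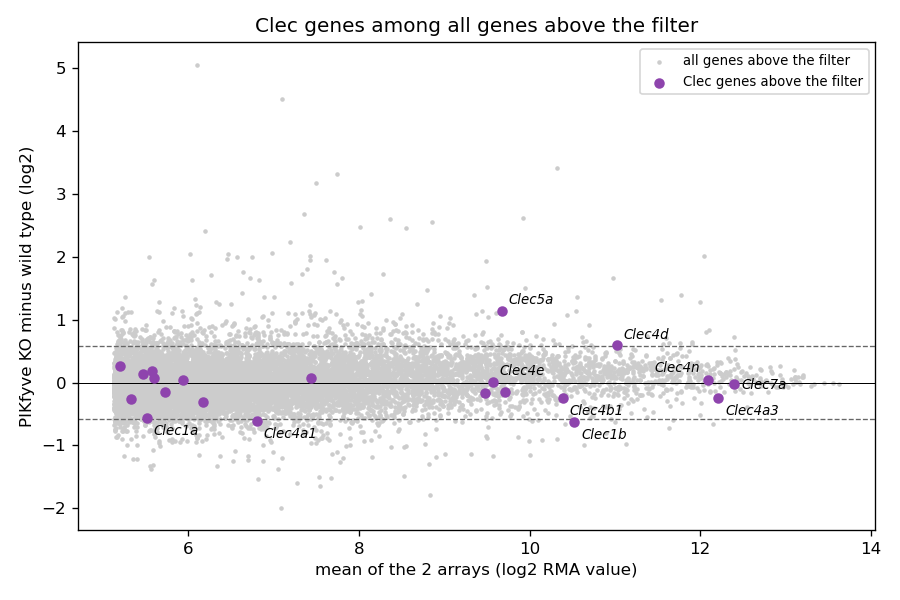
Each point is a gene that passed the filter, placed by the mean of its values on the 2 arrays (x axis, log2) and by its PIKfyve KO minus wild type difference (y axis, log2), with the 21 Clec genes in purple and dashed lines at 1.5-fold. Clec5a stands at 1.14 and Clec4d at 0.59 on the upper side, Clec1b at -0.63 and Clec4a1 at -0.61 on the lower side, and the other Clec genes lie between the lines.

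Clec5a had the largest difference of the measured Clec genes. It encodes MDL-1, a receptor of monocytes, macrophages and neutrophils that signals through DAP12 and DAP10. It read 10.24 in the KO array and 9.10 in the wild type array, a difference of 1.14 or 2.20-fold, where the local spread was 0.30. It ranked 71 of 12516 genes by positive difference, and it kept at least 1.02 under every scaling tried.

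Clec4d encodes MCL (dectin-3), a receptor for mycobacterial cord factor that pairs with Mincle and with FcR gamma. Its row read 11.32 in the KO array and 10.73 in the wild type array, which is 0.59 or 1.51-fold higher, with a local spread of 0.20. This gene only just passed 1.5-fold. Under quantile normalisation its difference was 0.53, under lowess centring 0.47 and with an offset of 32 on the linear scale 0.58, all below that threshold.

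The best known fungal receptors read nearly the same in both arrays. Clec7a, which encodes dectin-1, the beta-glucan receptor which signals by a motif in its own tail, read 12.38 in the KO array and 12.40 in the wild type array. Clec4n encodes dectin-2, the alpha-mannan receptor, and read 12.12 in the KO array and 12.07 in the wild type array. For Clec4e, which encodes Mincle, the partner of MCL, the readings were 9.57 in the KO array and 9.56 in the wild type array. The signs of Clec4e and Clec4n turned under lowess centring, and that of Clec4e also under quantile normalisation. Clec4b1, which encodes the FcR gamma-coupled receptor DCAR, read 10.26 in the KO array and 10.52 in the wild type array, within its local spread of 0.30. Its relative Clec4b2 was below background on both arrays (3.89 in KO and 4.12 in wild type).

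Of 10 neutrophil markers, 9 read higher in the KO array, beside 6117 of all 12516 genes. Clec5a and Clec4d also read higher. Neutrophils are known to carry several of these receptors. Clec7a, Clec4n and Clec4e, given above, read nearly the same in both arrays. All 10 neutrophil markers lay above background on both arrays. By 1.5-fold or more, 5 were higher and 1 was lower in the KO array. Of all 12516 genes, 4.45% were higher and 2.66% lower by that much, shares that belong beside every marker count at 1.5-fold given here. The summed linear signal of the 10 markers was 9679 in KO and 7028 in wild type. Such a sum is led by the brightest markers, here S100a8 (12.08 in KO, 11.44 in wild type) and S100a9 (11.83 in KO, 11.63 in wild type). Over all genes measured the sum was 4.28e+06 in KO and 4.03e+06 in wild type. The defining marker Ly6g read 6.57 in KO and 5.78 in wild type. The lower marker was Csf3r, at 5.68 in KO and 6.32 in wild type. Of the 6 monocyte markers that passed the filter, 0 read 1.5-fold higher and 4 read 1.5-fold lower. Ly6c2 was among the lower ones, at 7.66 in KO and 8.35 in wild type. Cd177, counted in that list though better known from neutrophils, read 5.70 on both arrays. The summed linear signal of the 8 measured monocyte markers was 756 in KO and 1342 in wild type. Of the 7 interstitial macrophage markers that passed the filter, 3 read 1.5-fold higher as read in the KO array and 0 lower, with Ms4a7 at 9.31 in KO and 8.06 in wild type. Measured from background 2 were higher, since C1qc was below it in wild type. The summed linear signal of the 8 measured interstitial macrophage markers was 1164 in KO and 699 in wild type. The part of these cells in the Clec values was not tested, and in sorted bulk RNA more cells of a type and more RNA per cell cannot be told apart.

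**Figure D2:**
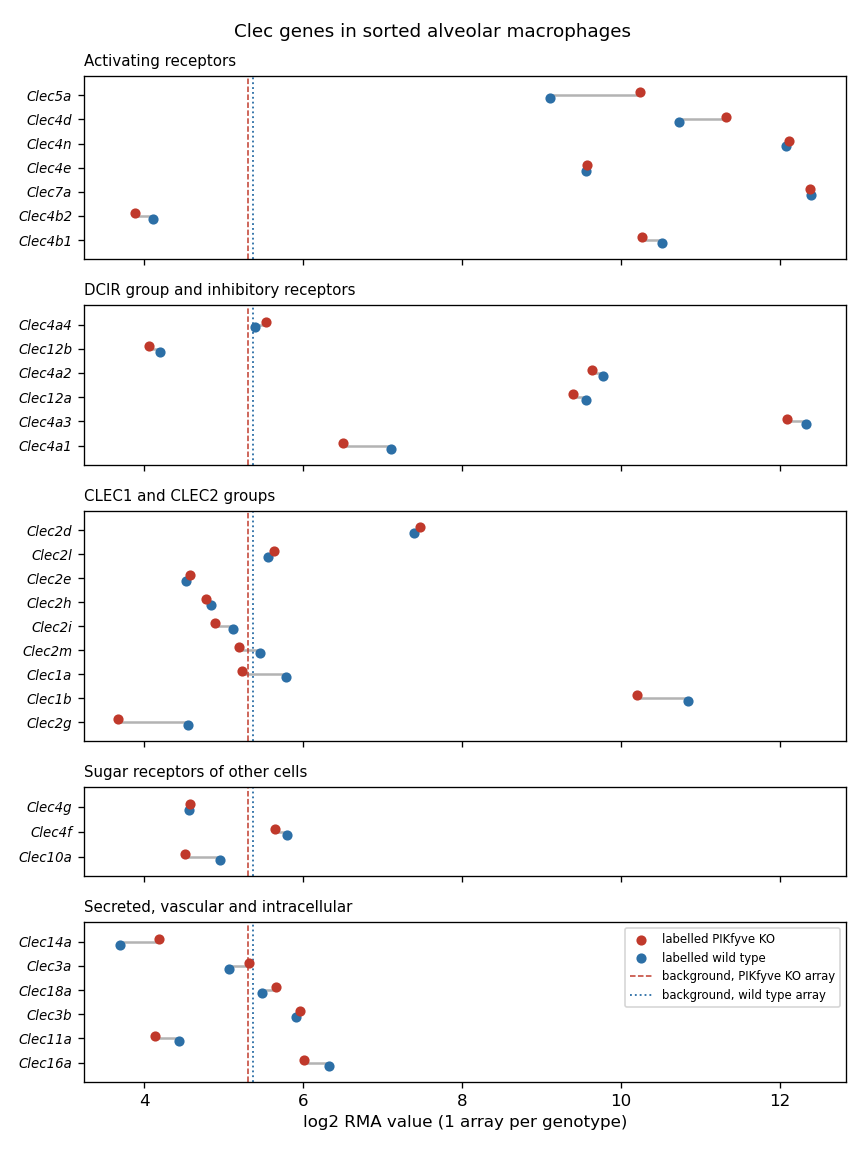
Log2 RMA values (x axis) of the 31 Clec genes in the array labelled PIKfyve KO (red) and the array labelled wild type (blue), grouped by role and ordered by difference, with each array's background as a vertical line. The gap is widest for Clec5a among genes above background, and Clec7a, Clec4n and Clec4e nearly coincide; levels of different genes come from different probes and are not compared.

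Sequences before the start of the 4 genes past 1.5-fold are shown with that of Clec4e, the direct neighbour of Clec4d that read the same in both arrays. They are the 250 bases before the RefSeq start in build GRCm38.p6, on the strand of the gene, 5' to 3'. Capitals mark GAGGAA, a core of sites for PU.1, the transcription factor of myeloid cells, or its reverse complement TTCCTC.
Clec5a, chr6:40585806-40586055, minus strand: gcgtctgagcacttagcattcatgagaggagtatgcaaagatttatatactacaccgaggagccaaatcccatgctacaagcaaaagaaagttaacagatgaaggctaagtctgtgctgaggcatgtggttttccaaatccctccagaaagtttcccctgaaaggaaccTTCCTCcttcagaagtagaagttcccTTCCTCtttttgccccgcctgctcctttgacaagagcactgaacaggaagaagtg
Clec4d, chr6:123261857-123262106, plus strand: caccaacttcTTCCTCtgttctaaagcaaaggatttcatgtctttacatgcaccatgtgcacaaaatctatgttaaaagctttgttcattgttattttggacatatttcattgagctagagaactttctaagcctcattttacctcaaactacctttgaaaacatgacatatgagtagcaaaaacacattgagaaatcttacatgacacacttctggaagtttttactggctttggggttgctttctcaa
Clec4e, chr6:123289872-123290121, minus strand: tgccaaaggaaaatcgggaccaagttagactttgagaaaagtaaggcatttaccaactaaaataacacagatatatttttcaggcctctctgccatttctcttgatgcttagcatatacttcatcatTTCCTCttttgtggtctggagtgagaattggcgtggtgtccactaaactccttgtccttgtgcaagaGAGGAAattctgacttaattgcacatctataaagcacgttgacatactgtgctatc
Clec1b, chr6:129397047-129397296, plus strand: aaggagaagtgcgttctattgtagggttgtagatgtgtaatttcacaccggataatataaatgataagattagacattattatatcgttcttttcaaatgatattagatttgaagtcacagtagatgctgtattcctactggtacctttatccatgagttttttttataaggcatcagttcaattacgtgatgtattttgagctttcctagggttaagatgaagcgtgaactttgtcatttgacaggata
Clec4a1, chr6:122921598-122921847, plus strand: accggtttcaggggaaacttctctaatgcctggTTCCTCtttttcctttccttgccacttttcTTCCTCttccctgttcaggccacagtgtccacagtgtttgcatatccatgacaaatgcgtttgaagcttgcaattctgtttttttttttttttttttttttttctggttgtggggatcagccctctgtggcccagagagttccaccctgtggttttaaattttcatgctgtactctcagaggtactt

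The letters GAGGAA or TTCCTC occurred 2 times before Clec5a, 1 time before Clec4d, 2 times before Clec4e and 2 times before Clec4a1, and they did not occur before Clec1b. Across the family, windows were held for 25 of the 31 genes, 28 windows in all, some of which overlap. GAGGAA was found on either strand in 15 of the 28, against 23.3% of all 32851 windows of this length in the table. The palindrome CACGTG, the core of the CLEAR element bound by lysosomal gene regulators, was found in 0 of the 28 and in 6.02% of all windows. TGANTCA, letters that include the AP-1 site and are wider than it, was found in 5 of the 28 and in 6.75% of all. The narrower TGACTCA, or TGAGTCA on the other strand, was searched after that count was seen and was found in 1 of the 28, before Clec2g, and in 4.46% of all. A match of letters is no evidence of binding, and these motifs were chosen after the values of the genes were seen.

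Among genes of the DCIR group and inhibitory receptors outside it, 4 of the 5 that passed the filter read lower in the KO array. Only Clec4a1 did so by 1.5-fold, and 3 of the 5 lay within their local spread. With 5 genes, and 6202 of all 12516 genes lower, this count is not read as a result about the group. Clec4a1 encodes DCIR4 and read 6.50 in the KO array and 7.11 in the wild type array, a difference of -0.61 or 1.53-fold lower, with a local spread of 0.27. With the same offset this difference was -0.47, below 1.5-fold. Of the 6 markers of the monocyte list given above, 4 also read at least 1.5-fold lower. Ccr2 lay within its local spread, and Cd177 read 5.70 on both arrays. The part of these markers' cells in the Clec4a1 value was not tested.

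The other members of the group differed less. Clec4a3, which encodes DCIR3, read 12.09 in the KO array and 12.34 in the wild type array, slightly more than its local spread of 0.20. Clec4a2 encodes DCIR1, an inhibitory receptor with a phosphatase-recruiting motif, and read 9.64 in KO and 9.78 in wild type. Clec12a encodes MICL, an inhibitory receptor for uric acid crystals, and read 9.40 in KO and 9.56 in wild type. Both differences lay within a local spread of 0.30. Clec4a4, which encodes DCIR2, a receptor of a dendritic cell subset, stood just above background at 5.53 in KO and 5.40 in wild type. Clec12b, an inhibitory receptor gene, was below background on both arrays (4.07 in KO and 4.20 in wild type).

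Clec1b had the largest negative difference among the Clec genes that passed the filter. It encodes CLEC-2, the podoplanin receptor best known from platelets. It read 10.21 in the KO array and 10.84 in the wild type array, which is -0.63 or 1.55-fold lower, with a local spread of 0.20. It ranked 244 of 12516 genes by negative difference. The row that Clec1b shares with Clec9a read 7.55 on both arrays and so did not show this difference. Of the 4 platelet markers that passed the filter, 2 read at least 1.5-fold higher and 0 lower by that much in the KO array. These were Ppbp (8.05 in KO and 7.04 in wild type) and Pf4 (6.87 in KO and 6.23 in wild type), both platelet chemokine genes. Itga2b, an integrin gene of platelets, was below background in KO (5.20) and read 5.69 in wild type, at least 1.31-fold lower. The summed linear signal of the 5 measured markers was 517 in KO and 335 in wild type, and their part in the Clec1b value was not tested. Pdpn, which encodes podoplanin, the ligand of CLEC-2, read 8.35 in KO and 7.83 in wild type, a difference of 0.53.

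Clec1a, a neighbour of Clec1b that encodes a receptor for fungal melanin on endothelial and myeloid cells, was below background in the KO array (5.23) and was above it in the wild type array (5.79). Measured from background it read at least 1.40-fold lower. Of 7 endothelial markers, 5 were below background on both arrays, Cdh5 and Kdr among them, as were 10310 of all 22180 genes. Pecam1 was above it on both arrays (5.32 in KO and 5.53 in wild type). Eng was above it in KO only (5.33 in KO and 5.25 in wild type). The part of these markers' cells in the Clec1a value was not tested.

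Several of the Clec2 genes encode ligands of natural killer receptors of the NKR-P1 family. Clec2d, the ligand of the inhibitory receptor gene Klrb1b, read 7.47 in the KO array and 7.40 in the wild type array, and Klrb1b read 7.87 in KO and 7.65 in wild type. Clec2l, of brain tissue, read 5.63 in KO and 5.56 in wild type, close to background. Clec2m read 5.19 in KO, below background, and 5.46 in wild type, just above it. The remaining Clec2e, Clec2g, Clec2h and Clec2i were below background on both arrays, between 3.68 and 4.89 in KO and between 4.53 and 5.12 in wild type. Clec2g had the widest gap of these, -0.87, and no fold is given for it because neither value stands above background.

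Most Clec genes typical of other cells were at background. Clec10a, which encodes the galactose receptor MGL1 of connective tissue macrophages and dendritic cells, read 4.52 in KO and 4.96 in wild type, and Clec4g, which encodes LSECtin of liver endothelium, read 4.58 in KO and 4.57 in wild type. Both were below background. Clec4f, the Kupffer cell receptor gene, read 5.65 in KO and 5.80 in wild type, only slightly above it. Clec14a, an endothelial gene, read 4.19 in KO and 3.70 in wild type, and Clec11a, a bone growth factor gene, read 4.14 in KO and 4.45 in wild type, again below background.

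Of the secreted and intracellular members, Clec16a was above background on both arrays and read lower in the KO array. Despite its name it encodes an endosomal protein that acts with ubiquitin ligases in mitophagy. It read 6.01 in KO and 6.33 in wild type, a difference of -0.31 where the local spread was 0.26. Clec3b, which encodes tetranectin, a plasminogen-binding plasma protein, read 5.97 in KO and 5.92 in wild type, and Clec18a read 5.66 in KO and 5.48 in wild type. Clec3a, a cartilage gene, just reached background in the KO array (5.33) and not in the wild type array (5.07).

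Neighbouring Clec genes differed in direction and size. RefSeq places 23 of the 31 genes on chromosome 6, most of them in 2 clusters. In the cluster that runs from Clec4a1 to Clec4e, 9 Clec genes lie with no other measured gene between them. Their differences ranged from -0.61 at Clec4a1 to 0.59 at Clec4d, and the genes on both sides of Clec4d, Clec4n and Clec4e, differed by 0.04 and 0.01. In the second cluster, from Clec2h to Clec7a, 11 Clec genes lie among 10 other measured genes. There Clec1b differed by -0.63 and Clec1a was at least 1.40-fold lower, while Clec7a, the last gene of the run, differed by -0.02. Of the 6 other genes of that cluster that passed the filter, Klrb1, a natural killer receptor gene, had the widest gap, at 5.64 in KO and 4.81 in wild type. The wild type value is below background, so that it was at least 1.21-fold higher. Genes of such clusters are similar in sequence, and whether their rows share probes was not tested.

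**Figure D3:**
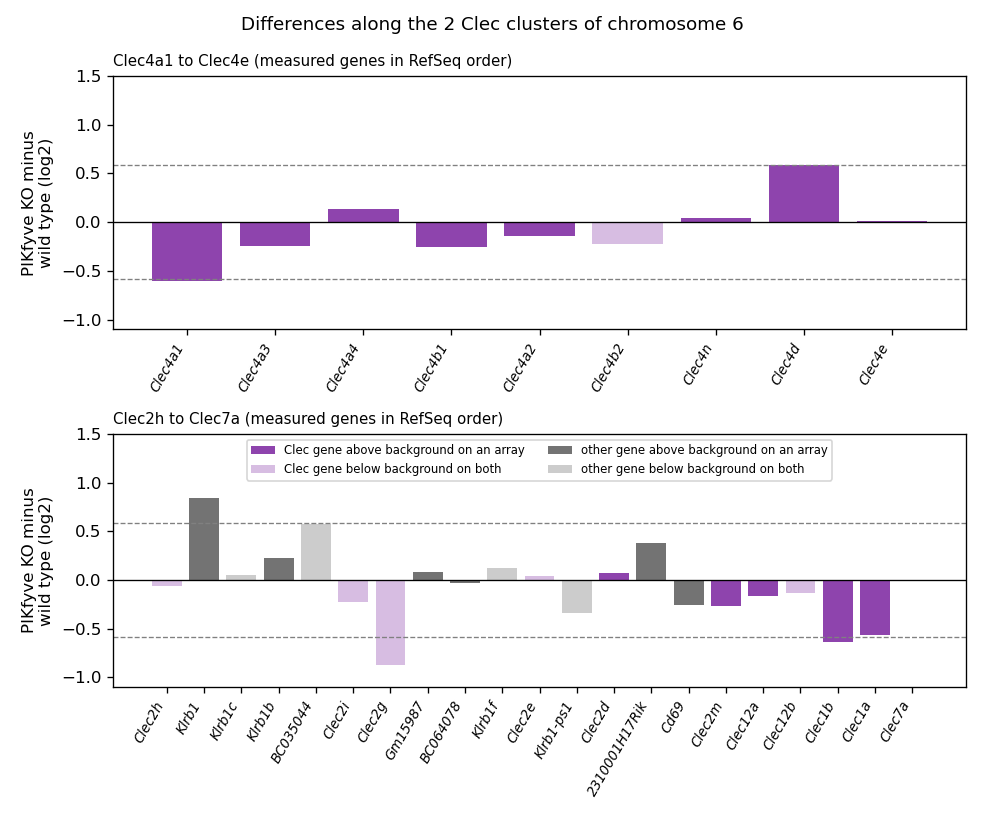
Bars give the PIKfyve KO minus wild type difference (y axis, log2) of each measured gene in RefSeq order (x axis) along both clusters, Clec genes in purple and other genes in grey, pale where both arrays were below background; dashed lines mark 1.5-fold. Clec4d at 0.59 stands between Clec4n at 0.04 and Clec4e at 0.01, and Clec1b stands at -0.63 and Clec7a at -0.02. Bars of genes with 1 array below background, Clec1a and Klrb1 among them, show the values as read.

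The measured signalling genes that CLEC receptors use were all above background, and most read alike in both arrays. Of 18 listed, 16 were measured, 1 read 1.5-fold higher in the KO array and 0 read 1.5-fold lower, with a median of -0.07. Of all genes, 4.45% were higher and 2.66% lower, so this count is not read as a result about the list. Vav3, a guanine nucleotide exchange factor, was the higher gene, at 6.18 in KO and 5.55 in wild type. Hcst, which encodes DAP10, an adaptor of MDL-1, read 11.82 in KO and 11.29 in wild type, a difference of 0.53. Tyrobp, which encodes DAP12, its other adaptor, read 13.198 in KO and 13.003 in wild type. Fcer1g, which encodes FcR gamma, the adaptor of dectin-2, MCL and Mincle, read 12.65 in KO and 12.56 in wild type. Syk read 7.11 in KO and 7.45 in wild type, a difference of -0.34. Card9, Bcl10 and Malt1, which form the complex that carries the signal of SYK to NF-kappa B, differed by 0.04, 0.04 and 0.07. The Src family kinase gene Fgr had the largest negative difference of the list, -0.51. Apart from Vav3, these genes were picked as partners of the receptors described or after their values were seen.

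Among 12 listed ligands and partner receptors, 10 were measured, 8 passed the filter and 0 differed by 1.5-fold, with a median of 0.07. Pdpn, given above, and Tlr2 had the largest differences. Tlr2, the lipoprotein receptor gene whose product acts with dectin-1, read 9.51 in KO and 10.04 in wild type. Lgals9, which encodes galectin-9, a described ligand of dectin-1, read 9.88 in KO and 9.96 in wild type.

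**Figure D4:**
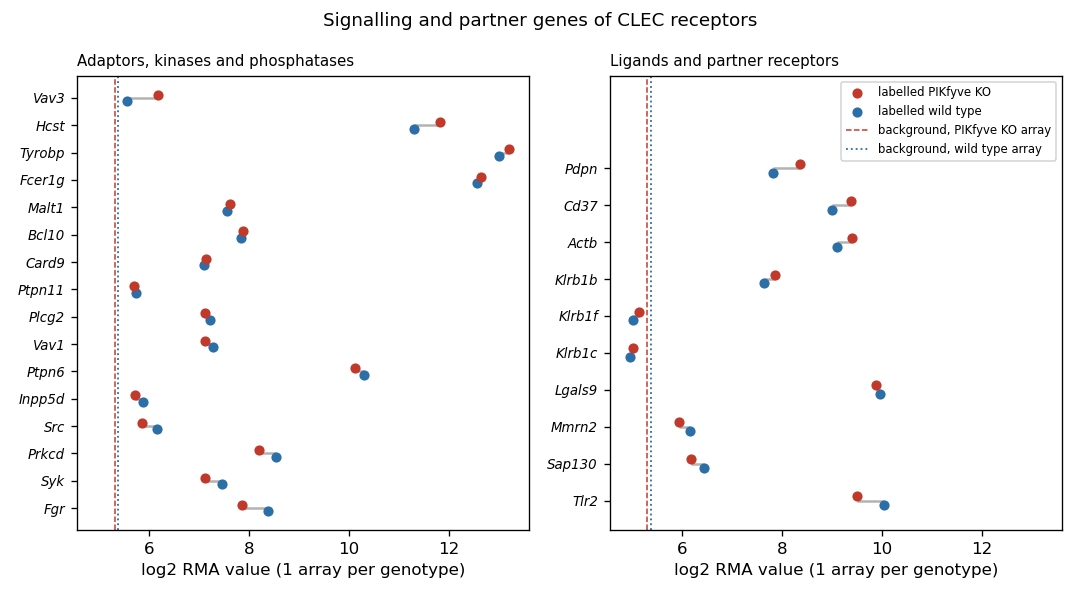
Log2 RMA values (x axis) in the array labelled PIKfyve KO (red) and the array labelled wild type (blue) of 16 signalling genes (left) and 10 ligand and partner genes (right), ordered by difference, with each array's background as a vertical line. Vav3, at 6.18 in KO and 5.55 in wild type, has the widest gap on the left, and Klrb1f and Klrb1c on the right are below background.

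Other genes with a C-type lectin domain, outside the Clec names, were set beside the family. Of 46 listed, 42 were measured and 22 passed the filter, of which 6 were higher as read and 1 was lower by 1.5-fold or more in the KO array, with a median of 0.21. Measured from background 5 were higher, since Prg2 was only at least 1.31-fold higher. The listed symbol Attrn, taken to be a misspelling of Atrn, matched no gene. Atrn read 5.81 in KO and 5.87 in wild type and is not in these counts. Of all genes, 4.45% were higher and 2.66% lower. Reg3g, an epithelial antimicrobial lectin gene, read 7.44 in KO and 5.47 in wild type, and Cd93, a gene of endothelial and myeloid cells, read 7.12 in KO and 5.41 in wild type. Mgl2, the close relative of Clec10a, read 7.11 in KO and 6.25 in wild type, while Clec10a was below background. Klrk1, the NKG2D receptor gene, read 6.57 in KO and 5.71 in wild type, and Sftpa1, the surfactant protein A gene, read 7.45 in KO and 6.60 in wild type. Prg2, the eosinophil major basic protein gene, read 5.76 in KO and 4.71, below background, in wild type. The lower gene was Klra2, of the Ly49 receptor group, at 10.70 in KO and 11.32 in wild type, named after its value was seen. Mrc1, the mannose receptor gene, read 11.35 in KO and 11.36 in wild type.

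Several markers of epithelium and of T and NK cells also read higher in the KO array, while others, Epcam, Cd3e and Prf1 among them, read lower. Of 8 epithelial markers, all above background, 4 read 1.5-fold higher and 1 lower in the KO array. The lower one, Epcam, read 6.09 in KO and 8.09 in wild type, the most negative difference of all 12516 genes. The summed linear signal of the 8 markers was 8552 in KO and 6637 in wild type. Of 9 T and NK cell markers, 7 lay above background on both arrays, 3 read 1.5-fold higher and 0 lower, and Ncr1 and Klrb1c were below background, with a summed linear signal of 1188 in KO and 798 in wild type. Klrk1 is in both that list and the lectin list. The part of these cells in the lectin values was not tested.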

How the data were processed

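The deposited values were made with RMA from Affymetrix arrays, per the submitters' processing notes. That the deposited values are log2 was taken from this method and from their range. That method subtracts background, brings arrays to a common distribution and joins probes into rows. The sources used here give no version of it and no genome build. Of 41345 rows, 23521 have 1 gene symbol in GEO's platform annotation; these were used, and rows of a gene were averaged. All 31 Clec symbols matched RefSeq (GRCm38.p6) by Entrez identifier. Genes with a mean at or above the median of all rows entered the comparison. With 1 array per genotype there was no test, p-value or standard error, and the number of arrays limits the precision. Genes were put in 20 bins by level, and the local spread is the median absolute deviation of a bin's differences times 1.4826; it ranged from 0.20 to 0.33. Every Clec gene is accounted for, and of the signalling, partner and other lectin lists the genes at least 1.5-fold apart, at most 6, or else the 2 with the largest differences were named. Cell type marker lists are given by counts, some with summed signal, and single markers were named after their values were seen. Of 9 dendritic cell markers that passed the filter, 2 read 1.5-fold higher in the KO array, Mgl2 among them, and 0 lower. Of 4 B cell markers that passed it, 0 differed by 1.5-fold. The members and lists were chosen with earlier results of these data known. The code was tested on simulated data. A search of protein motifs was planned and not run, as no protein table was used here. Alternatives were other filters, scalings, an offset of 32, the row with the highest mean, and other thresholds. Python 3.11.15, pandas 2.3.3 and statsmodels 0.14.6 were used.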

Additional observations from a re-analysis of the deposited data

How the results depend on the processing

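No paired analysis was possible because each genotype has 1 array. The count of Clec genes at least 1.5-fold higher, 2 as reported, was 1 under quantile normalisation, 1 under lowess centring (span 0.3) and 1 with the offset of 32, where Clec4d read 0.53, 0.47 and 0.58. The count at least 1.5-fold lower, 2 as reported, was 1 with the offset, where Clec4a1 read -0.47, and 3 with no filter, which adds Clec2g. At 3-fold 0 Clec genes were higher and 0 lower. With background at the 99th percentile of receptor genes, 12 Clec genes lay above it instead of 21. The median difference ran from -0.14 to -0.02 under the alternatives. Clec5a stayed between 1.02 and 1.14 and Clec1b between -0.75 and -0.62. Signs turned for Clec2h, Clec4e and Clec4n under lowess centring and for Clec4e under quantile normalisation. The count of Clec promoter windows with TGANTCA, 5 as reported, was 1 for TGACTCA, a search added after seeing the data. The offset shrinks differences of dim genes by construction. Each value rests on 1 array per genotype.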
